A study of Mus musculus with 6 samples.

Results

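Tetraspanins are small multi-pass membrane proteins, and the 10 genes followed here, Cd9, Cd37, Cd53, Cd63, Cd81, Cd151, Tspan13, Tspan31, Tspan32 and Tspan33, are members of this family known from lymphocytes. The rule picks them by gene symbol, and the list was drawn up with earlier results of these data known. All 10 were found among the 19938 genes that a probe set of the arrays names alone, each by a single probe set. Expression was measured on 1-colour arrays in 6 samples of mouse pre-B cells transformed with BCR-ABL1, the oncogenic kinase that the Philadelphia chromosome creates and a driver of acute lymphoblastic leukemia. Cells of 3 samples were wild type for Etv5, an ETS-family transcription factor, and cells of 3 were Etv5 knockout. The oncogene and the strain, 129SvEv, were common to both genotypes. The age of the mice, the vector that drove BCR-ABL1, and whether a sample is a clone, a pool or 1 mouse are unstated in the sources used here. The p-values therefore reflect nothing beyond the variation among these 6 samples, and that variation may be technical.

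Tetraspanins work mainly by holding other membrane proteins together. Through a large extracellular loop and lipid-modified cytoplasmic cysteines they bind partners such as integrins, immunoglobulin-superfamily proteins and proteases, and also one another, in what is called the tetraspanin web. In B cells CD81 takes part in receptor complexes at the cell surface, CD37 and CD53 are leukocyte tetraspanins that shape signalling and adhesion, and CD9 is carried by subsets of B lineage cells. The comparison asks which of these genes differed in the transformed cells when Etv5 was missing.

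The arrays gave log2 signals with medians between 7.79 and 7.84, and pairs of arrays correlated at r = 0.991 to 0.997 across probe sets. The second principal component (24.0% of the variance) set sample 3 of each genotype, at the low end, apart from sample 2 of the wild type and sample 1 of the knockout. Of 10 markers of B cell precursors, 9 were measured and all 9 lay above the dimmest 40% of probe sets, Igll1 at 14.29 in wild-type cells and 14.25 in knockout cells. Of the Etv5 probe sets, one gave 9.30, 9.52 and 9.27 in wild-type cells and 8.97, 8.91 and 8.92 in knockout cells (log2 change -0.43, limma adjusted p = 0.0467), and the other gave 11.48, 11.52 and 11.46 against 11.67, 11.88 and 11.73 (0.28, adjusted p = 0.13). Where their probes lie relative to the deletion is unstated in the sources used here, so neither is shown to test the deletion.

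The 3 genes whose promoters held a 6-base core of the motif that Etv5 and its nearest relatives bind, CCGGAA, were Cd9, Cd37 and Tspan32. Their 250 bases upstream of the RefSeq start site (build GRCm38.p6) are printed because 1 of these genes fell in the knockout and the others did not pass the test. Each is written 5′ to 3′ on the strand of the gene, in lower case with the match in capitals. A match on the opposite strand reads TTCCGG. The windows are Cd9 at chr6:125494761-125495010 (minus strand), Cd37 at chr7:45238840-45239089 (minus strand) and Tspan32 at chr7:143004796-143005045 (plus strand).
Cd9: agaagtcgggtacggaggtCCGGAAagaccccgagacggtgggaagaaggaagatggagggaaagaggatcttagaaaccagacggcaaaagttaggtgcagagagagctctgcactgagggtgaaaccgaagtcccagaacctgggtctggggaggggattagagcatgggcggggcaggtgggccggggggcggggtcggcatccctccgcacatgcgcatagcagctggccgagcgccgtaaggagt
Cd37: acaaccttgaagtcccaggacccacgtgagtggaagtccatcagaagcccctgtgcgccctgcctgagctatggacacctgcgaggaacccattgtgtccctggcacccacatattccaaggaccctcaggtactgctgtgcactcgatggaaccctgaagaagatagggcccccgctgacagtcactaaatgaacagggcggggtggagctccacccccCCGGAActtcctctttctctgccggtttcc
Tspan32: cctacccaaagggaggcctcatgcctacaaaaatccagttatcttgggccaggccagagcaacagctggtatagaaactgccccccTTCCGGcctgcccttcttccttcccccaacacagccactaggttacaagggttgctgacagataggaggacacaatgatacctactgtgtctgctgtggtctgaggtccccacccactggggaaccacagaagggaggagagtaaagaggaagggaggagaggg
The match lay 231 to 226 bases before the start of Cd9, 30 to 25 bases before that of Cd37 and 164 to 159 bases before that of Tspan32. Searched on both strands in upstream windows of the same length, CCGGAA stood in 12.0% of 32851 windows and in at least 1 window of 13.6% of 27025 genes. The shorter core GGAA, which is part of CCGGAA, stood in a window of all 10 members and of 94.2% of genes. The longer CCGGAAGT, which contains both, stood in none of the members' 11 windows and in a window of 3.23% of genes. The Cd9 window held 4 matches to GGAA, that of Cd37 held 7 and that of Tspan32 held 5, where the median over all windows was 3. These windows were picked for CCGGAA, so at least 1 match to GGAA in each was fixed in advance. The windows of the other members held from 1 match (Tspan13 and 1 window of Cd151) to 5 (Cd63). These matches describe the sequence and are not measured binding sites.

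Cd9 was lower in the knockout, and no other of the 10 genes passed the test. Cd9 encodes a tetraspanin that binds integrins and the EWI immunoglobulin-superfamily proteins and is best known for its need in sperm-egg fusion. Its log2 signal was 8.55, 8.54 and 8.36 in wild-type cells and 7.69, 7.65 and 7.22 in knockout cells. The highest knockout value lay below the lowest wild-type value, and knockout sample 3 was the lowest of all. The mean fell from 8.48 ± 0.107 to 7.52 ± 0.258 (SD, n = 3 each), a log2 change of -0.96 ± 0.136 (SE, 95% interval -1.30 to -0.63), so that the wild-type signal was 1.95-fold that of the knockout. By limma with Benjamini-Hochberg adjustment over all 35556 probe sets the adjusted p was 0.0174. Thus 1 of 10 members was called, lower in the knockout, beside 4.43% of all genes (3.08% of all probe sets) called in either direction and 2.01% of genes called lower. The same 1 member had an unadjusted limma p under 0.05, as 13.4% of all genes did. In bulk RNA, fewer cells that carry Cd9 and less Cd9 RNA per cell cannot be told apart.

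The call of Cd9 was lost in 3 of the 6 fits that left out 1 sample. Each such fit has fewer arrays, and the count called over all probe sets fell from 1095 to between 565 and 857. With sample 1 or 2 of the wild type or sample 2 of the knockout omitted, the adjusted limma p was 0.0863, 0.0779 and 0.053, with log2 changes of -0.93, -0.94 and -1.03. It stayed below 0.05 without wild-type sample 3 (0.0458), knockout sample 1 (0.0356) or knockout sample 3 (0.0176), the last with a log2 change of -0.82. Cd9 varied more within a genotype than most genes: its residual SD of 0.197 exceeded or equalled that of 96.1% of genes, whose median was 0.0881. Over all settings tried, its change lay between -1.11 and -0.82 and its adjusted p between 0.0018 and 0.0863.

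**Figure D1:**
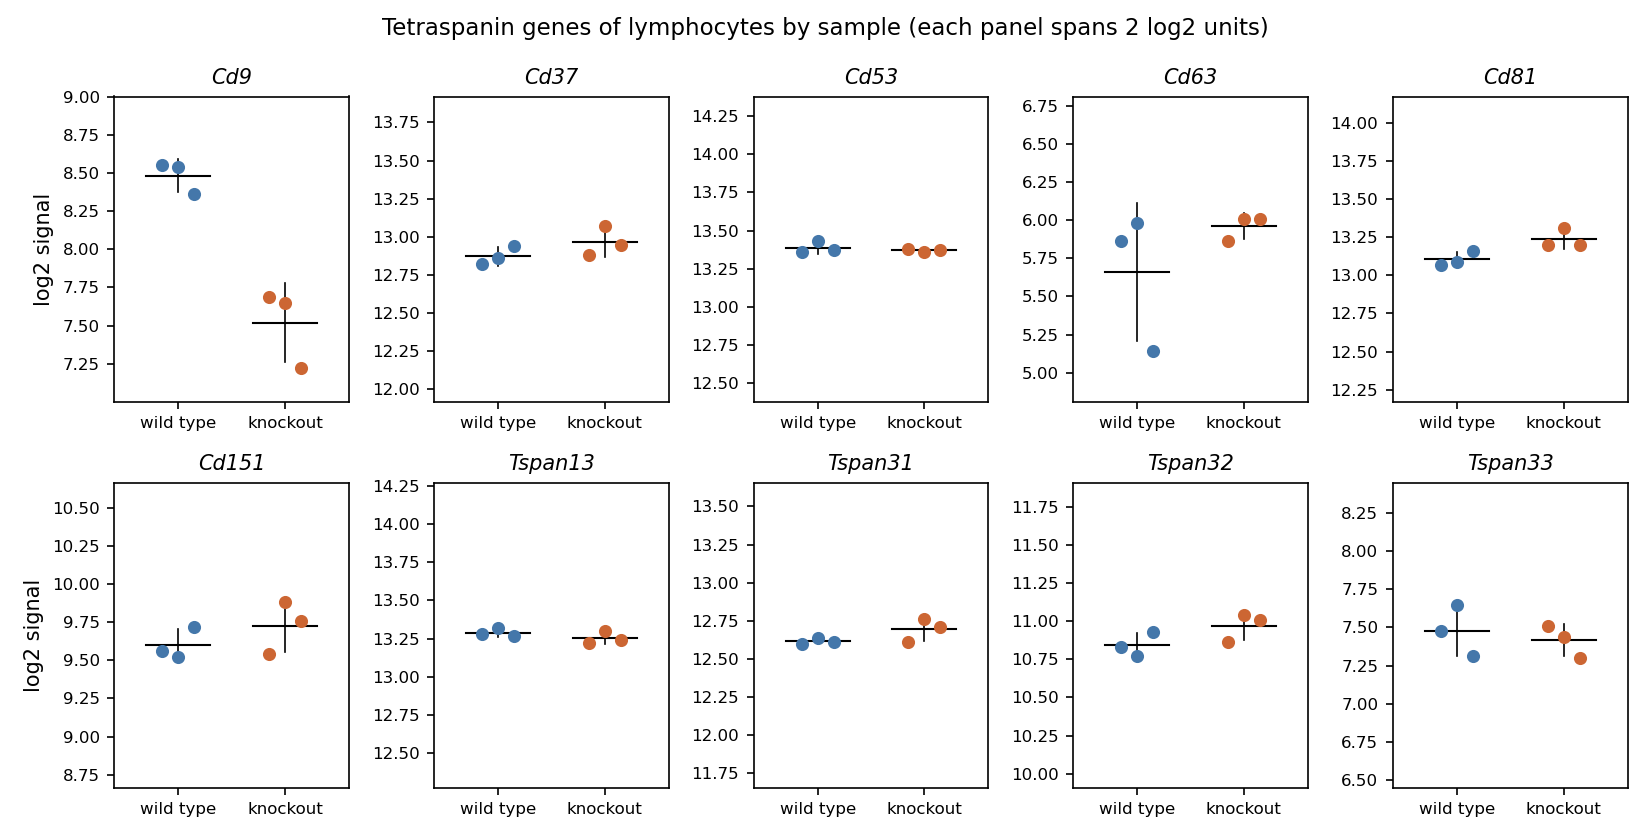
Log2 signal of each of the 10 genes (vertical axis, each panel spanning the same range of log2 units) in 3 wild-type samples (blue) and 3 knockout samples (orange), in the order of their sample numbers from left to right. Horizontal lines are means and vertical lines ± 1 SD; Cd9 separates the genotypes by 0.96, while the other panels show differences between -0.07 and 0.30.

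Cd81, a close relative of Cd9, was high in every sample. Its log2 signal was 13.07, 13.09 and 13.16 in wild-type cells and 13.20, 13.31 and 13.20 in knockout cells. The 3 knockout values lay above the 3 wild-type values by a small margin. The log2 difference was 0.13 ± 0.057 (SE, 95% interval -0.01 to 0.27), and it did not pass limma (adjusted p = 0.499). With Cd9, 2 of the 10 members had groups that did not overlap, a share near the 20.5% of all genes. The interval of Cd81 allowed at most a 1.20-fold higher signal in the knockout. Cr2, a complement receptor of B cells found in complexes with CD81, gave 7.08, 7.03 and 7.06 against 7.0, 7.30 and 7.23, a dim signal with overlapping groups (log2 difference 0.12, adjusted p = 0.789).

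The leukocyte tetraspanins Cd37 and Cd53 were bright in both genotypes and differed little. Cd37, a B cell tetraspanin whose loss impairs antibody responses in mice, gave 12.82, 12.86 and 12.94 in wild-type cells and 12.88, 13.07 and 12.95 in knockout cells. The groups overlapped, and the log2 difference was 0.09 ± 0.069 (SE, 95% interval -0.08 to 0.26, limma adjusted p = 0.82). Cd53, carried by nearly all leukocytes, gave 13.36, 13.43 and 13.37 against 13.38, 13.36 and 13.37. All 3 of its knockout values lay within the range of the wild type. Its log2 difference was -0.02 ± 0.048 (SE, 95% interval -0.13 to 0.10), and its SD within a genotype, 0.0262, was among the smallest 3.42% of genes. A change of Cd53 beyond the range from 0.912-fold to 1.07-fold lay outside that interval. Il7r, encoding the cytokine receptor of B cell precursors whose signalling CD53 is known to promote, was likewise bright, at 13.19 and 13.26 (log2 difference 0.07, 95% interval -0.05 to 0.18, adjusted p = 0.784).

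Tspan32, a tetraspanin of blood cells that takes part in T cell and platelet responses, neighbours Cd81 on chromosome 7. It gave 10.83, 10.77 and 10.93 in wild-type cells and 10.86, 11.04 and 11.01 in knockout cells. Knockout sample 1 lay within the wild-type range and the other knockout samples above it. The log2 difference was 0.13 ± 0.074 (SE, 95% interval -0.05 to 0.31, adjusted p = 0.674), the same size as that of its neighbour Cd81.

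Cd151 and Cd63 gave dimmer signals with wider intervals. Cd151, which binds laminin-binding integrins, gave 9.56, 9.52 and 9.72 in wild-type cells and 9.54, 9.88 and 9.76 in knockout cells, with overlapping groups. Its log2 difference was 0.13 (95% interval -0.12 to 0.38, limma adjusted p = 0.821). Cd63, a tetraspanin of late endosomes, lysosomes and secreted vesicles, gave 5.86, 5.98 and 5.14 in wild-type cells and 5.86, 6.01 and 6.01 in knockout cells. Wild-type sample 3 was the low value, and the other 5 samples lay between 5.86 and 6.01. Cd63 was the member with the dimmest probe set, at the 14.7th percentile of all probe sets and the only one among the dimmest 40%, so its level is not shown to be above background. Its log2 difference was 0.30 ± 0.218 (SE, 95% interval -0.23 to 0.83, adjusted p = 0.792). Without wild-type sample 3 the difference lay at 0.04, the lowest of the fits that left out 1 sample.

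Tspan13 and Tspan31, tetraspanins less studied in B cells, were bright and close to equal between genotypes. Tspan13 gave 13.28, 13.32 and 13.27 in wild-type cells and 13.22, 13.30 and 13.24 in knockout cells (log2 difference -0.04, 95% interval -0.16 to 0.08). Tspan31, first described as a gene amplified in sarcomas together with its neighbour Cdk4, gave 12.60, 12.64 and 12.61 against 12.61, 12.76 and 12.71 (0.08, 95% interval -0.06 to 0.22). The groups overlapped for both genes, and neither passed limma (adjusted p = 0.931 and 0.80). Cdk4, the cell cycle kinase, differed by 0.01 (adjusted p = 0.99).

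Tspan33 belongs to the TspanC8 subgroup, which carries the protease ADAM10 out of the endoplasmic reticulum and guides its cleavage of surface proteins such as Notch. Its log2 signal was 7.48, 7.65 and 7.31 in wild-type cells and 7.51, 7.44 and 7.30 in knockout cells, with overlapping groups (log2 difference -0.07, 95% interval -0.32 to 0.18, limma adjusted p = 0.947). Its sign turned to 0.02 without wild-type sample 2. The other 5 TspanC8 genes were also measured. Of all 6, 0 passed limma (all genes, 4.43%) and 0 had an unadjusted p under 0.05 (all genes, 13.4%), with log2 differences from -0.07 (Tspan33) to 0.14 (Tspan5). Tspan14, with a bright probe set, gave 12.25, 12.31 and 12.33 against 12.39, 12.43 and 12.39 (log2 difference 0.11, 95% interval -0.02 to 0.23, adjusted p = 0.552). Its groups did not overlap, nor did those of Tspan17, making 2 of 6 beside 20.5% of all genes. Adam10 itself gave 12.16, 12.14 and 12.07 against 12.27, 12.30 and 12.21, a log2 difference of 0.13 (95% interval 0.00 to 0.26) with an unadjusted limma p of 0.0446 and an adjusted p of 0.432.

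The median log2 difference of the 10 members was 0.083, beside -0.004 over all genes. Of the 9 members not called, differences ran from -0.07 to 0.30, and adjusted limma p-values from 0.499 to 0.979. Among these 9, the 7 whose probe sets lay at or above the 70.5th percentile of all probe sets had 95% intervals within -0.16 to 0.38. The change of Cd9 was set against that of each other member within the same arrays, 9 comparisons that share Cd9. The log2 difference between Cd9 and the other member changed by -0.90 (Tspan33) to -1.10 (Cd151 and Tspan32) from wild type to knockout for 8 members. Against Cd63 it changed by -1.27, a size that is uncertain because Cd63 is not shown to be above background and its own difference rests on wild-type sample 3. In all 9 the genotypes did not overlap, and the exact two-sided permutation test gave p = 0.1 for each, the smallest value 3 samples against 3 allow (adjusted over the 9, 0.1). Cd9 had been singled out after its value was known, so these comparisons describe it.

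**Figure D2:**
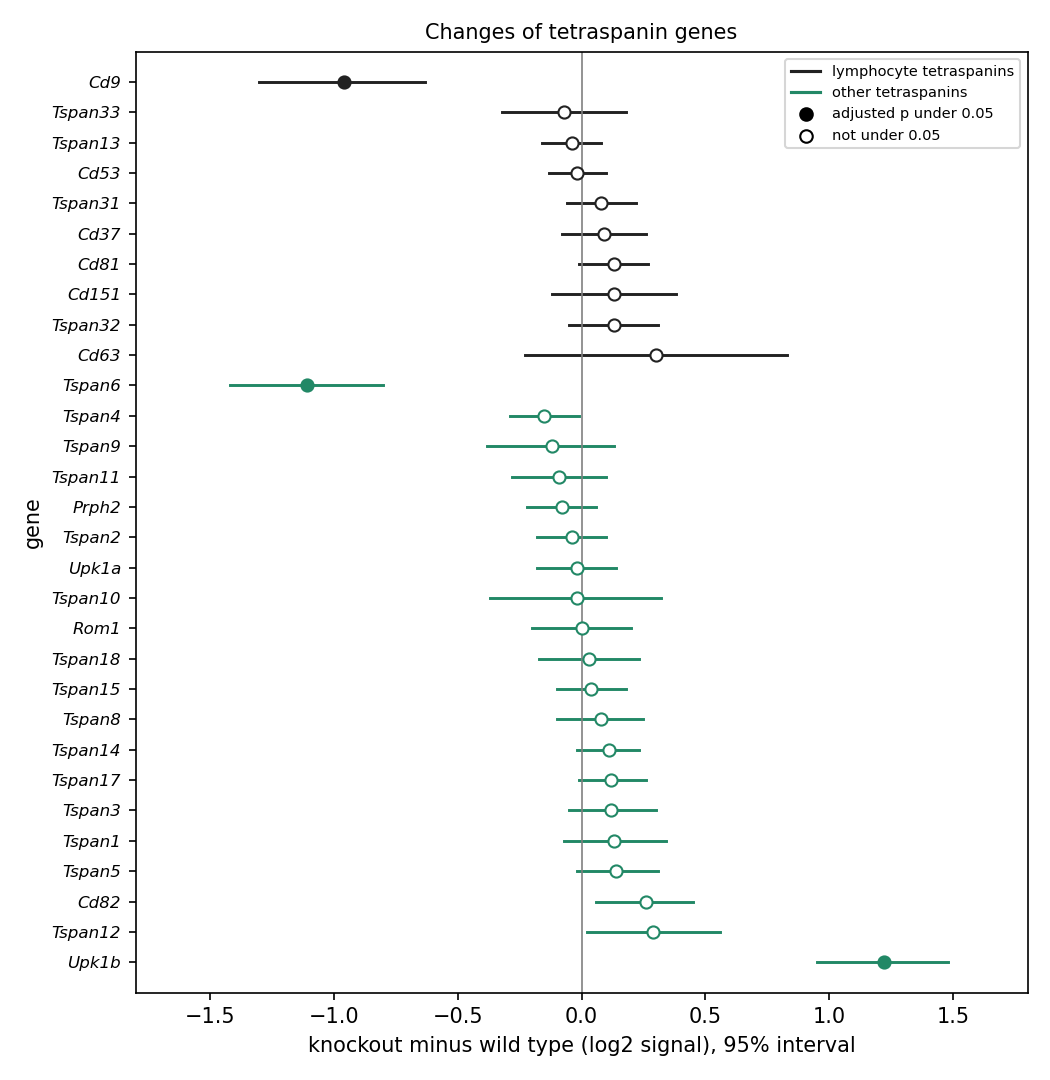
Knockout minus wild-type log2 signal (horizontal axis) with its 95% interval from limma for the 10 lymphocyte tetraspanins (black) and 20 other tetraspanin genes (green), each group sorted by change. Filled points have an adjusted p under 0.05: Cd9 (-0.96), Tspan6 (-1.11) and Upk1b (1.22).

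Within a genotype, some members varied alike and others did not. Over the 6 arrays, correlations of deviations from the genotype means ran from -0.80 (Tspan32 with Tspan33) to 0.97 (Cd151 with Tspan32). That of Cd37 with Cd81 was 0.96. These values were picked as extremes among all pairs of the 10 members over only 6 arrays, and they are a description. In knockout sample 2, 6 of the 10 members had their highest knockout value (Cd37, Cd81, Cd151, Tspan13, Tspan31 and Tspan32). In knockout sample 1, 7 had their lowest, all but Cd9, Cd53 and Tspan33. Wild-type sample 3 held the highest wild-type value of Cd37, Cd81, Cd151 and Tspan32 and the lowest of Cd9, Cd63, Tspan13 and Tspan33. Cd9 was thus low within its genotype in wild-type sample 3 (-0.12 from the genotype mean) and in knockout sample 3 (-0.30). Both samples lay at the low end of the second principal component, and the part of that axis in the spread of Cd9 was not tested. The deviations of Cd53 and Tspan13 stayed within 0.05 of the genotype mean in all 6 samples.

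**Figure D3:**
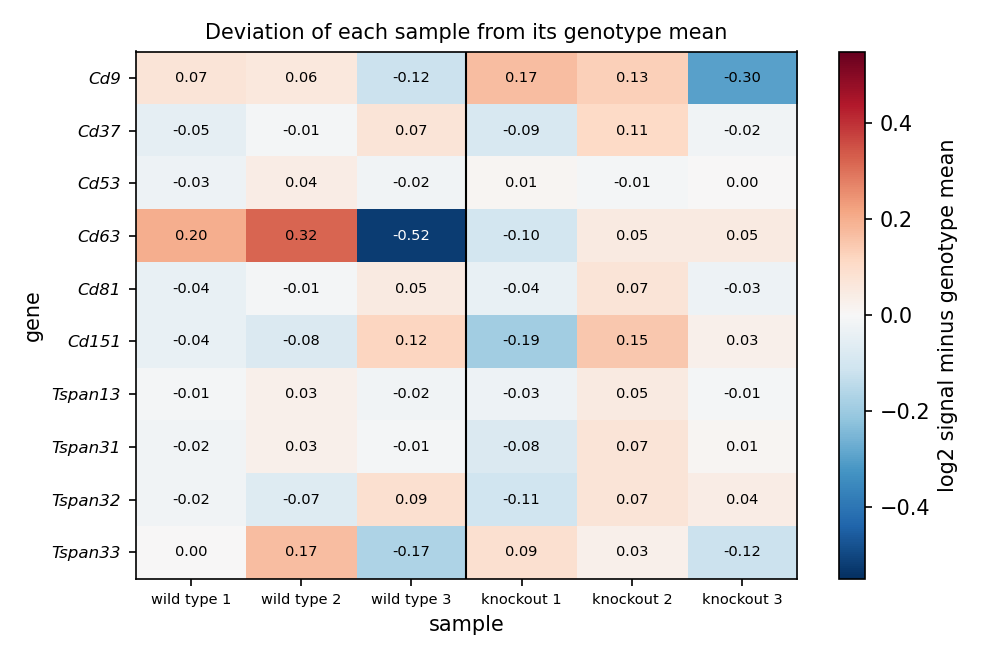
Log2 signal minus the mean of the sample's own genotype for the 10 genes (rows) in the 6 samples (columns), printed in each cell and coloured from blue (below the mean) to red (above). The largest deviations are those of Cd63 in wild-type samples 3 (-0.52) and 2 (0.32), followed by Cd9 in knockout sample 3 (-0.30).

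By Pearson correlation over the 6 arrays, the genes with patterns most like that of Cd9 were Prps2 (r = 0.993), Cd6 (r = 0.992) and Tsr1 (r = 0.991). They differed between genotypes by -0.20, -0.11 and -0.14 and did not pass limma (adjusted p = 0.157, 0.445 and 0.355). Of 19937 genes compared, 163 reached r over 0.95. By deviations from the genotype means the nearest genes were Rilp, Adam5 and Gm10747 (r = 0.999, 0.999 and 0.998), with 215 over 0.95. All points share the same 6 arrays, and these likenesses are a description.

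The nearest 2 protein-coding genes on each side of every member were taken from the gene table of GRCm38.p6. The neighbours of Cd9 on chromosome 6, Tnfrsf1a, Plekhg6, Vwf and Ano2, differed by 0.01, -0.05, -0.03 and -0.06, and none of the 4 passed limma (lowest adjusted p, that of Ano2, 0.858) or had an unadjusted p under 0.05. Of 36 distinct measured neighbours that are not members, 1 rose and 2 fell, beside 2.42% of all genes called higher and 2.01% called lower. Gdf11, next to Cd63, rose by 0.55 (adjusted p = 0.0108). Dkkl1 near Cd37 changed by -2.46 (adjusted p = 0.000175) and Ahcyl2 near Tspan33 by -0.52 (adjusted p = 0.00654). Cd37 and Tspan33 themselves differed by 0.09 and -0.07.

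Of the 21 other tetraspanin genes of the mouse, 20 were measured, of which Upk1b rose, Tspan6 fell and 18 did not pass. An unadjusted limma p under 0.05 was found for 5 of the 20 (all genes, 13.4%), and groups that did not overlap for 7 (all genes, 20.5%). Upk1b, which encodes a uroplakin of the bladder lining, gave 6.98, 7.14 and 7.19 in wild-type cells and 8.11, 8.47 and 8.37 in knockout cells. Upk1b lies on chromosome 16, as Etv5 does, and an effect of that position was not tested. The genotypes lay apart by nearly a full log2 unit, and the wild-type mean of 7.10 was below 7.32, the signal under which the dimmest 40% of probe sets fell. The signal was 2.33-fold higher in the knockout (log2 change 1.22, 95% interval 0.95 to 1.48, limma adjusted p = 0.00309). Tspan6, an X-linked tetraspanin gene, gave 9.41, 9.53 and 9.57 in wild-type cells and 8.15, 8.39 and 8.64 in knockout cells. It was 2.16-fold higher in the wild type (log2 change -1.11, 95% interval -1.42 to -0.80, adjusted p = 0.00798). Both kept their call whichever of the 6 samples was omitted, with adjusted p up to 0.0223 and 0.0468. The next smallest p-values were those of Cd82, a tetraspanin known for restraining metastasis (0.26, adjusted p = 0.25), and Tspan12, a co-receptor of Norrin signalling in retinal vessels (0.29, adjusted p = 0.415). Of all 30 tetraspanin genes measured, 1 rose and 2 fell, beside 2.42% of all genes called higher and 2.01% called lower.

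Genes of proteins that bind tetraspanins were followed as a list of 40, of which 37 were measured. By limma 1 rose, 3 fell and 33 did not pass, beside 4.43% of all genes called in either direction, and the median log2 difference was 0.044 (all genes, -0.004). An unadjusted p under 0.05 was found for 14 of the 37 (all genes, 13.4%), and groups that did not overlap for 17 (all genes, 20.5%). This list, like the members, was drawn up with earlier results of these data known, and 27 of the 37 lay above the dimmest 40% of probe sets. Its shares, and those of its parts below, are therefore a description. Epcam, an adhesion molecule found in tetraspanin complexes with claudin-7 and CD44, gave 10.48, 10.10 and 10.34 in wild-type cells and 7.21, 7.60 and 7.31 in knockout cells. The genotypes lay far apart (log2 change -2.93, 95% interval -3.27 to -2.60, adjusted p = 0.000313). Knockout samples 1 and 3 lay below 7.32, the cutoff of the dimmest 40% of probe sets, so the size of this change may be understated. Cd44, the hyaluronan receptor, moved the other way, from 8.51, 8.54 and 8.64 to 9.41, 9.53 and 9.48 (0.91, 95% interval 0.76 to 1.06, adjusted p = 0.00108). Cldn7, encoding claudin-7, was dim and differed by -0.03 (adjusted p = 0.983).

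Among 7 integrin genes, 1 fell and 6 did not pass, beside 2.01% of all genes called lower. An unadjusted limma p under 0.05 was found for 4 of the 7 (all genes, 13.4%), and groups that did not overlap for 4 (all genes, 20.5%). Itga5, the alpha chain of the fibronectin receptor, gave 9.79, 9.70 and 9.81 in wild-type cells and 8.22, 8.30 and 8.05 in knockout cells (log2 change -1.57, 95% interval -1.76 to -1.38, adjusted p = 0.000381). Its beta chain gene Itgb1, shared by most integrins that tetraspanins bind, differed by -0.06 (95% interval -0.19 to 0.06). Itga6, a laminin-binding alpha chain and partner of CD151, gave 11.63, 11.63 and 11.58 against 11.88, 11.84 and 11.90. Its groups lay apart, but the log2 difference of 0.26 narrowly missed the threshold (adjusted p = 0.0524). Itga4, encoding an alpha chain of VLA-4, a partner of CD81 and CD53, differed by -0.24 (adjusted p = 0.163).

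The EWI protein genes Ptgfrn and Igsf8, whose products are the main direct partners of CD9 and CD81, did not pass. Ptgfrn gave 7.42, 7.50 and 7.44 against 7.40, 7.46 and 7.30 (log2 difference -0.07, 95% interval -0.22 to 0.08). Igsf8 gave 8.86, 8.92 and 8.99 against 8.86, 9.03 and 8.84 (-0.02, 95% interval -0.19 to 0.16). Of the interferon-induced transmembrane genes, which include the CD81 partner Ifitm1, Ifitm3 fell. It gave 8.51, 8.50 and 8.73 in wild-type cells and 6.95, 7.48 and 7.56 in knockout cells (-1.25, 95% interval -1.67 to -0.83, limma adjusted p = 0.0157), and lost its call when any 1 of the 3 wild-type samples or knockout sample 2 was left out (adjusted p 0.0522 to 0.0675). Ifitm1 and Ifitm2 were bright and, by their brightest probe sets, differed by 0.03 and -0.01 (adjusted p = 0.977 and 0.989). Their other probe sets differed by -0.05 (Ifitm1) and by 0.00 and -0.11 (Ifitm2), and none passed limma (lowest adjusted p = 0.687). The 3 genes are close in sequence, so signal of one on a probe set of another was not tested. Of 4 sheddase genes and relatives and 7 cytoplasmic partners, including Sdcbp, the syntenin gene of vesicle formation (12.80 and 12.78), 0 passed limma (all genes, 4.43%). Of these 11, 3 had an unadjusted p under 0.05 (all genes, 13.4%).

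**Figure D4:**
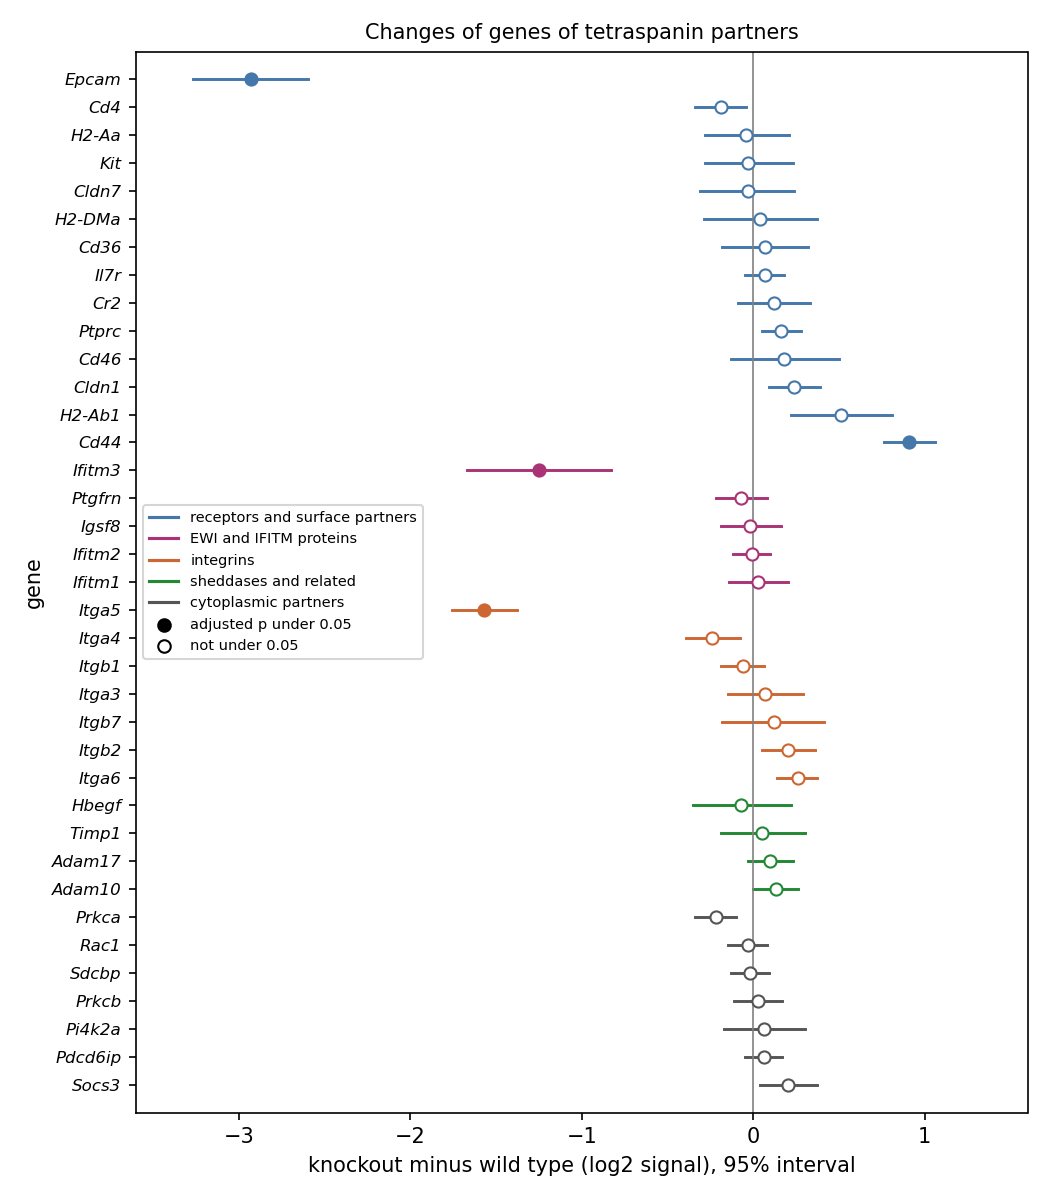
Knockout minus wild-type log2 signal (horizontal axis) with its 95% interval from limma for 37 genes of tetraspanin partners, coloured by kind of partner and sorted within each kind. Filled points have an adjusted p under 0.05; Epcam (-2.93), Itga5 (-1.57) and Ifitm3 (-1.25) lie to the left and Cd44 (0.91) to the right.

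CD9 and CD63 are also proteins of platelets and mast cells, so markers of those and other cell types were read beside Cd9. Of 4 measured megakaryocyte and platelet markers and 4 mast cell and basophil markers, 0 passed limma (all genes, 4.43%). Of the 8, 1 had an unadjusted p under 0.05 (all genes, 13.4%), Ppbp (log2 difference 0.17, adjusted p = 0.404). The mean log2 signal of the platelet list ran from 6.40 to 6.51 in wild-type cells and from 6.38 to 6.55 in knockout cells. That of the mast cell list ran from 5.46 to 5.52 and from 5.42 to 5.50, and all 4 of its markers lay among the dimmest 40% of probe sets. Of 6 myeloid markers, Ly6g rose (1.14, adjusted p = 0.0156) and 5 did not pass, beside 2.42% of all genes called higher. By sign, 2 of the 6 were higher and 4 lower in the knockout (median log2 difference -0.027). Among the lower ones was Lyz2 (-0.32, limma adjusted p = 0.473), whose groups did not overlap. The probe set of Ly6g lay among the dimmest 40%, and the myeloid list means were 7.15 to 7.27 and 7.23 to 7.47. The T cell (6.85 to 6.92 and 6.78 to 7.01), erythroid (7.40 to 7.47 and 7.35 to 7.42) and stromal and endothelial lists (7.59 to 7.75 and 7.55 to 7.71) had 11 measured members. Of these, 0 were called by limma (all genes, 4.43%) and 0 had an unadjusted p under 0.05 (all genes, 13.4%). Among 9 B cell precursor markers, Pax5 rose (0.43, adjusted p = 0.0127) and 8 did not pass, beside 2.42% of all genes called higher. The list means were 12.2 to 12.3 and 12.3 to 12.4.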

How the data were processed

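Per the labels' protocols, biotin-labelled RNA of 6 samples, 3 per genotype, was read on Affymetrix arrays of 1 colour. The table deposited by the authors holds log2 values of 35556 probe sets, made with RMA, which quantile-normalizes arrays and compresses differences of dim probe sets, and Partek 6.5, per the submitters' processing notes. Filters, detection calls and the build of the array design are unstated in the sources used here, and depth has no meaning for arrays, whose number limits the precision.

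Genotypes and sample numbers came from the titles. A gene was represented by its brightest single-gene probe set (mean of 6 arrays); probe sets naming several genes (1621) or none (12146) were fitted but not named. The fit was limma 3.58.1 in R 4.3.3 (lmFit, eBayes, no covariate, no filter; 6.23 total degrees of freedom), adjusted by Benjamini-Hochberg over all probe sets at 0.05, and tested on simulated data. Sample numbers were not treated as pairs: deviations of same-numbered samples correlated at -0.12, 0.016 and 0.259. Promoters were searched with Python 3.11.15 in RefSeq windows of GRCm38.p6.

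The members and lists were chosen with earlier results of these data known. The genes named are all members, every other tetraspanin or partner gene past the threshold, the 4 of smallest p in each of these lists, and the genes most like Cd9; further genes were named for their role, position or neighbours after values were seen. Alternatives tried were omission of each sample, a replicate block by sample number, 3 normalizations, array weights, variance settings, other thresholds, single-gene or brighter probe sets alone, and averaged probe sets per gene.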

Additional observations from a re-analysis of the deposited data

How the results depend on the processing

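Cd9 was the 1 member called in every setting that kept all 6 samples at a threshold of 0.05 or 0.10; at 0.01 the count was 0. Leaving out 1 sample gave 0 to 1 called members, 2 other tetraspanins in each fit, 3 to 4 partner genes and 565 to 857 of all probe sets, where all samples gave 1, 2, 4 and 1095. Over all probe sets the count was 538 at a threshold of 0.01 and 544 with the sample number as a replicate block, which changed no call among the tetraspanins or their partner genes. The partner genes called were 5 with quantile or cyclic loess normalization, array weights or a threshold of 0.10. They were 6 without the dimmest 40% of probe sets. With single-gene probe sets only or with probe sets averaged per gene they were 7, the added genes being H2-Ab1, Itga6 and Prkca. They were 8 with a variance trend and robust settings, which added Ptprc, Itga6, Itga4 and Prkca. The causes of these higher counts were not tested. The log2 difference of Tspan33 ran from -0.15 to 0.02 in the fits that left out 1 sample, turning its sign without wild-type sample 2. That of Cd53 came to 0.00 without the same sample, the other 8 members kept their sign in every setting, and no member other than Cd9 passed in any setting. Cd63 has no value under the filter that left out dim probe sets. With no detection p-values, no probe set could be called absent, and changes of dim ones may be understated.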
